A study of Rattus norvegicus with 15 samples.

Results

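Klf2, Klf4, Klf6 and Klf10 are 4 Krüppel-like factor genes that cells switch on in response to outside signals, and their expression was followed in the nucleus accumbens of male Sprague-Dawley rats after cocaine self-administration. They are 4 of the 14497 genes with a single platform symbol, and each was taken by that symbol, with the probe set of highest mean over the 15 arrays standing for the gene. All 4 passed the filter on low values, each on 15 of 15 arrays, so none passed through 1 group alone. No group difference enters that rule. The genes were nevertheless proposed with earlier results of these data known, so the differences between groups below are a description, and each adjusted p is the one from the fit over all 11778 genes kept.

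There were 15 arrays, 3 in each of 5 groups. Rats of group 30C self-administered cocaine for 10 days (6 hours a day, 0.75 mg/kg per infusion), spent 30 days in withdrawal and then had an extinction test of cue-induced cocaine seeking. Group 30W had the same cocaine and the same 30 days without the test. Groups 1C and 1W had 1 day of withdrawal, with the test in 1C and without it in 1W. Group Sal self-administered saline for 10 days, and the labels give these rats neither a withdrawal time nor a test. Whether 1 rat or a pool went onto each array is not stated. P-values therefore measure only the spread between these samples, which may be technical.

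Krüppel-like factors are transcription factors that bind GC-rich and CACCC sequences through zinc fingers at the end of the protein, while the rest of each protein recruits activators or repressors. Klf2 and Klf4 are best known from blood vessel endothelium, where flow acts through the kinase ERK5 and MEF2 factors to raise them. Klf4 restrains axon growth in rodent retinal ganglion cells, whereas Klf6 promotes axon growth in zebrafish and in rodent neurons. KLF10 was first described as an early gene induced by TGF-beta in human osteoblasts, and growth factors and neuronal activity act on genes of this family much as they do on Fos or Egr1.

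The RefSeq window upstream of the start site of Klf6 is shown because it holds a match to a serum response element, the binding site of SRF through which activity reaches many early genes. It was thus picked for its match. Windows were available for 2 of the 4 genes, Klf4 and Klf6. The Klf4 window was scanned too, and held 0 serum response element matches and 2 TATAAA matches. That window may lie inside the transcribed leader of another transcript, so it is not printed and its matches may not describe the promoter. The window shown is the 250 bases before the start of Klf6 in assembly GRCr8, minus strand, chr17:69458479-69458728. Capitals mark, from 5′ to 3′, a serum response element (SRE), a GC box (GGGCGG) and an E-box (CACGTG).
Klf6: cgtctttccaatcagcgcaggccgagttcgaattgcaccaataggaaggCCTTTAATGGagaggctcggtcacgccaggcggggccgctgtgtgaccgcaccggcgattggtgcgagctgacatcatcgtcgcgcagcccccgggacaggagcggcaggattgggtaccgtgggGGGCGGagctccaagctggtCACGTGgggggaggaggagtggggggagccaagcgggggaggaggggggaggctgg
The SRE match begins at base -201 from the start, the GC box at -76 and the E-box at -56, and the matches do not overlap. Of the 33469 RefSeq windows of this length, 1.5% held an SRE, 30.5% a GC box and 5.59% an E-box on either strand. The Klf6 window had 0 matches on either strand to 4 other motifs. These were the cAMP response element core CGTCA (18.2% of windows), the CACCC box (49.2%), the MEF2 motif (2.96%) and the TATAAA motif (12.9%). A match describes letters and is not evidence of binding.

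Markers of the main neuron type of the striatum were present, which does not tell the accumbens from the rest of the striatum. All 13 medium spiny neuron markers with a named probe set, Drd1, Drd2 and Ppp1r1b among them, passed the filter. The arrays also differed within groups in cortical neuron RNA. The score of 9 cortical projection neuron markers (their mean deviation from each marker's mean over 15 arrays, in log2) was 1.09, -0.05 and -0.69 in 30C, against -1.36, 0.42 and 0.78 in Sal, and it ran from -0.59 to 0.39 on the other 9. The correlation between any 2 arrays lay between 0.993 and 0.997. The median over all probe sets was 6.93 to 6.97 on the 30W and 30C arrays, and 6.89 to 6.92 on the Sal, 1W and 1C arrays. This shift goes with 30 days of withdrawal, and its part in comparisons across times or with Sal was not tested beyond centring arrays on their medians. In bulk tissue, fewer cells of a type and less RNA per cell cannot be told apart.

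Klf2 set the tested day 30 rats furthest apart from the rest. Its level, in RMA log2 units and in the order of replicates 1, 2 and 3, was 7.51, 7.36 and 7.59 in 30C, against 7.12, 7.25 and 7.29 in 30W. It was 7.28, 7.34 and 7.25 in 1C, then 7.24, 7.25 and 7.23 in 1W, and 7.16, 7.13 and 7.02 in Sal. Every 30C array lay above every array of the other 4 groups, and every Sal array lay below every 1C and 1W array. In order of the mean, 30C stood at 7.49 ± 0.12, 1C at 7.29 ± 0.05, 1W at 7.24 ± 0.01, 30W at 7.22 ± 0.09 and Sal at 7.10 ± 0.07 (SD, n = 3 each). The neighbours 30C and 1C did not overlap, while 1C with 1W, 1W with 30W and 30W with Sal met or overlapped. The whole range over the 15 arrays was 0.57 log2 units, or 1.49-fold, so these were small differences on a gene that varied little within groups.

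The mean of Klf4 was highest in the same group on the probe set used. The probe set used read 7.14, 7.17 and 7.07 in 30C, against 6.93, 6.87 and 6.94 in 30W. The levels were 6.68, 7.12 and 6.99 in 1C, 6.80, 6.94 and 6.63 in 1W, and 6.88, 6.74 and 6.92 in Sal. The 30C arrays lay above all 30W, 1W and Sal arrays, and 1C replicate 2 reached into their range. The means ran from 7.13 ± 0.05 in 30C through 6.93 ± 0.23 in 1C, 6.91 ± 0.04 in 30W and 6.84 ± 0.09 in Sal to 6.79 ± 0.15 in 1W (SD, n = 3 each), and each neighbour in this order overlapped the next.

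Klf6 separated no group from another. Its level was 7.41, 7.00 and 6.94 in 30C, against 6.95, 6.86 and 7.11 in 30W. It was 6.90, 7.14 and 6.95 in 1C, 7.06, 6.88 and 6.80 in 1W, and 6.94, 7.04 and 7.34 in Sal. The 2 high arrays were 30C replicate 1 and Sal replicate 3, which had the 2 highest cortical scores of the 15. Group means lay between 6.91 ± 0.13 in 1W and 7.12 ± 0.26 in 30C (SD, n = 3 each), with Sal at 7.10 ± 0.21, and every neighbour in the order overlapped.

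Klf10 had the widest range of the 4 genes, 1.20 log2 units or 2.30-fold. Its level was 8.92, 8.31 and 8.28 in 30C, against 8.27, 7.99 and 8.25 in 30W. It was 8.15, 8.35 and 8.41 in 1C, 8.05, 8.32 and 8.18 in 1W, and 7.72, 8.30 and 8.55 in Sal. Both extremes came from arrays at the ends of the cortical score, 30C replicate 1 at the top and Sal replicate 1 at the bottom. The means were 8.50 ± 0.36 in 30C, 8.30 ± 0.13 in 1C, 8.19 ± 0.43 in Sal, 8.19 ± 0.14 in 1W and 8.17 ± 0.16 in 30W (SD, n = 3 each), and neighbours in this order overlapped.

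**Figure D1:**
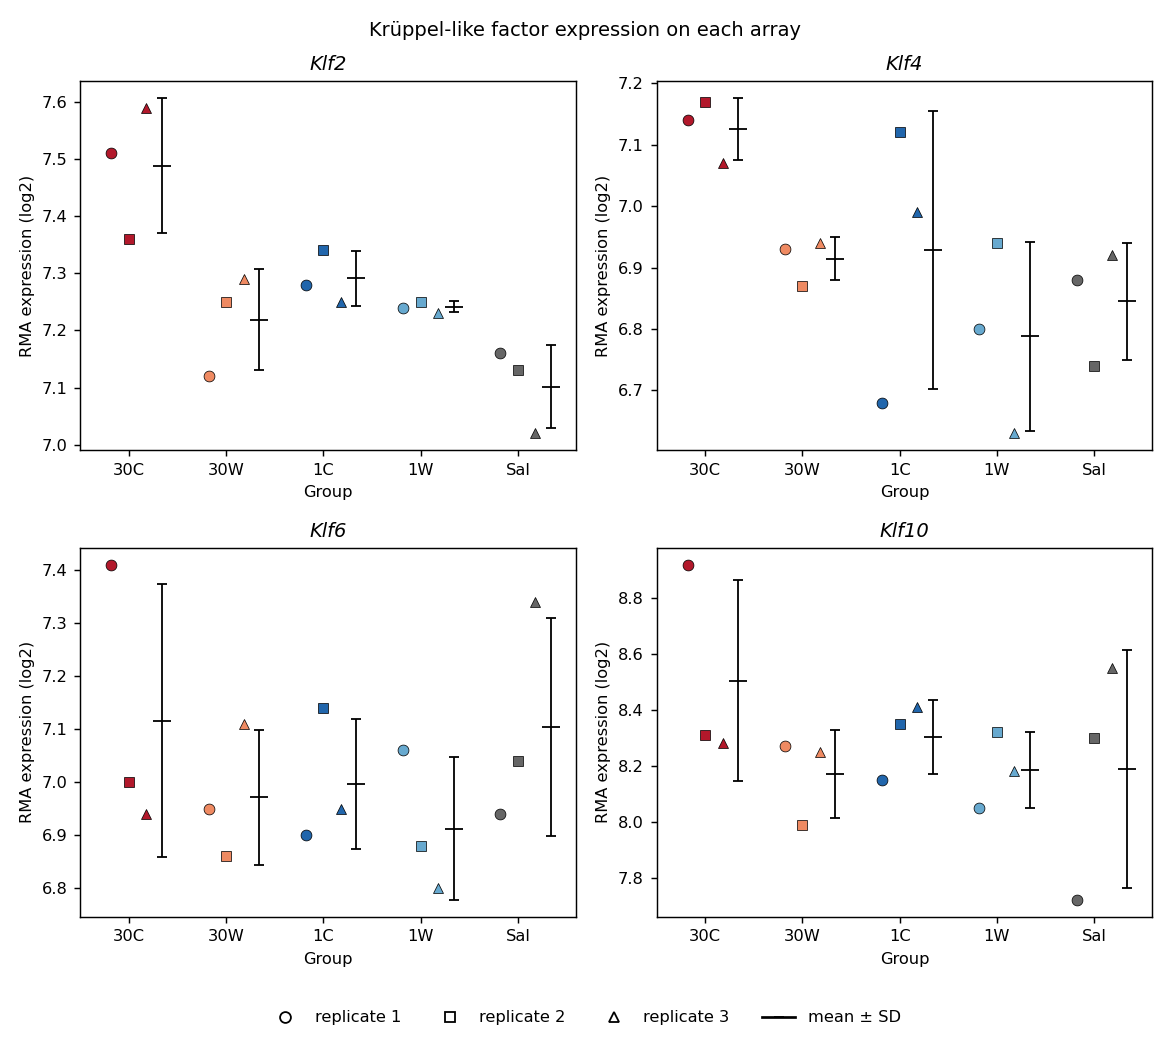
RMA log2 expression (y axis) of Klf2, Klf4, Klf6 and Klf10 on each array by group (x axis), with circles, squares and triangles for replicates 1, 2 and 3 and a bar for the mean ± SD of 3 arrays. Klf2 sits highest on the 30C arrays, and Klf4 has its highest mean there, with 1C replicate 2 inside the 30C range. Klf6 and Klf10 spread as widely within 30C and Sal as between groups.

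The share of the variation over the 15 arrays that lay between groups was highest for Klf2. It was 80.3% for Klf2, 52.7% for Klf4, 24.4% for Klf10 and 22.7% for Klf6. The within-group SD was 0.08 for Klf2, 0.13 for Klf4, 0.18 for Klf6 and 0.27 for Klf10.

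Tested and untested rats at 30 days of withdrawal were compared first. All 4 genes were higher in 30C, with a median log2 change of 0.24, against a median of 0.00 over all genes tested, of which 52.4% were higher. Klf2 differed by 0.27 (SE 0.06, 1.21-fold), Klf4 by 0.21 (SE 0.10), Klf10 by 0.33 (SE 0.19) and Klf6 by 0.14 (SE 0.13). In limma 0 of the 4 passed the adjusted threshold of 0.05, as did 0% of all genes, and Klf2 had adjusted p = 0.719. Klf2 ranked 12th by p among 11778 genes (unadjusted p = 0.000873), and it was the 1 member under an unadjusted p of 0.05 with a higher level, where 2.11% of all genes were. In 3 of the 4, Klf2, Klf4 and Klf10, the 30C arrays lay above all 30W arrays, where 4.51% of all genes did so. For Klf10 the gap was 0.01 log2 units between the closest arrays.

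Leaving out replicate 1 of 30C changed Klf6 and Klf10 more than Klf2 and Klf4. Without 30C replicate 1, the change of Klf10 was 0.13 and that of Klf6 -0.00, while Klf2 was at 0.26 and Klf4 at 0.20. Without replicate 2 Klf2 was at 0.33, Klf4 at 0.19, Klf6 at 0.20 and Klf10 at 0.43. Without replicate 3 they were at 0.22, 0.24, 0.23 and 0.45. With the cortical score as a covariate, the change of Klf10 was 0.31 with an SE of 0.10 (unadjusted p = 0.00681, adjusted p = 0.83 in limma), that of Klf6 0.13 (SE 0.08), that of Klf2 0.27 (SE 0.06) and that of Klf4 0.21 (SE 0.10).

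At 1 day of withdrawal, 1C was set against 1W. The 4 log2 changes were all positive and smaller, 0.05 (SE 0.06) for Klf2, 0.14 (SE 0.10) for Klf4, 0.08 (SE 0.13) for Klf6 and 0.12 (SE 0.19) for Klf10, with a median of 0.10. Single arrays moved these values. Klf4 was at 0.04 without 1C replicate 2 and at 0.27 without 1C replicate 1 (unadjusted p = 0.0077 in limma), and Klf6 ran from 0.02 without 1C replicate 2 to 0.16 without 1W replicate 1. All 4 genes overlapped between the groups, where 3.57% of all genes lay apart with 1C higher, and with all 15 arrays 0 of 4 reached an unadjusted p of 0.05 in limma, where 1.86% of all genes did so with a higher level. The interaction tests whether the difference after the test was larger at 30 days than at 1 day. It was 0.22 (SE 0.09) for Klf2, with unadjusted p = 0.0286 and adjusted p = 0.999 in limma, and 1.6% of all genes were higher at that unadjusted level. For Klf4 it was 0.07 (SE 0.14), for Klf6 0.06 (SE 0.18) and for Klf10 0.22 (SE 0.28). Of the 4 genes 0 passed the adjusted threshold for this difference.

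Averaged over withdrawal length, the tested rats were higher than the untested in all 4 genes, by 0.16 (SE 0.04) for Klf2, 0.18 (SE 0.07) for Klf4, 0.11 (SE 0.09) for Klf6 and 0.23 (SE 0.14) for Klf10. Klf2 and Klf4 had unadjusted p = 0.00328 and 0.0258 in limma, and adjusted p = 0.88 and 0.999. At an unadjusted p of 0.05, which both reached, 2.5% of all genes were higher. With array weights the value for Klf4 was 0.14 (unadjusted p = 0.0762). The endothelial score as a covariate left 0.19 for Klf2 and 0.15 for Klf4.

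The comparison of 30C with 1C sets the tested rats of both withdrawal times side by side. Klf2 was higher in 30C by 0.20 (SE 0.06, adjusted p = 0.774 in limma), the 1 member under an unadjusted p of 0.05, where 2.41% of all genes were higher, and its groups did not overlap, which held for 3.82% of all genes in that direction. Klf4 was at 0.20 (SE 0.10), Klf6 at 0.12 (SE 0.13) and Klf10 at 0.20 (SE 0.19), and their groups overlapped. Without 30C replicate 1 the values of Klf6 and Klf10 were -0.03 and -0.01. Without the test, 30W and 1W differed by -0.02 (SE 0.06) in Klf2, 0.13 (SE 0.10) in Klf4, 0.06 (SE 0.13) in Klf6 and -0.01 (SE 0.19) in Klf10. None of these 4 reached an unadjusted p of 0.05 in limma, where 4.19% of all genes were higher and 5.9% lower, and all 4 overlapped, where 5.53% of all genes lay apart with 30W higher. The 95% interval for Klf2 ran from -0.16 to 0.11.

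Against saline rats, the comparison with 30C gave the largest Klf2 change, 0.39 (SE 0.06, 1.31-fold), which had the smallest p of all 11778 genes in limma (unadjusted p = 3.26e-05) and adjusted p = 0.218. Klf4 was at 0.28 (SE 0.10, adjusted p = 0.879), Klf10 at 0.32 (SE 0.19) and Klf6 at 0.01 (SE 0.13). Klf2 and Klf4 were the 2 of 4 whose 30C arrays lay above all Sal arrays, where 4.3% of all genes did so, and the 2 under an unadjusted p of 0.05, where 2.94% of all genes were higher. This comparison shares its 30C arrays with those above. Klf10 moved with single arrays, to 0.08 without Sal replicate 1 and 0.11 without 30C replicate 1, and to 0.50 without Sal replicate 3.

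The other cocaine groups stood closer to saline. Klf2 was higher by 0.19 (SE 0.06) in 1C, 0.14 (SE 0.06) in 1W and 0.12 (SE 0.06) in 30W than in Sal, and its 1C and 1W arrays did not overlap the Sal arrays, where 3.97% and 4.84% of all genes lay apart in that direction. In 30W against Sal all 4 genes overlapped, where 6.47% of all genes lay apart with 30W higher. At an unadjusted p of 0.05 Klf2 was the 1 member higher in 1C (2.1% of all genes) and in 1W (2.78%) and 0 were in 30W (4.25%). In 1W the unadjusted p of Klf2 was 0.0455, and 0.0642 with the replicate block. These values share 1 set of 3 Sal arrays, and adjusted p in limma was 1.00, 0.999 and 0.712. Some markers of other cells were also higher in 1C and 1W than in Sal. Of 5 blood cell markers, 4 were higher in 1C than in Sal and 4 in 1W than in Sal at an unadjusted p of 0.05 in limma, with median log2 changes of 0.45 and 0.42, and their score was 0.12 to 0.29 in 1C and 0.04 to 0.29 in 1W, against -0.21 to -0.13 in Sal. Of 13 endothelial markers, 2 were higher in 1C and 6 in 1W at that level. Of 13 microglia and macrophage markers 1 was higher in 1C and 4 in 1W. Of 11 oligodendrocyte markers 3 were higher in 1W, and 1 was lower in 1C. Over the 15 arrays Klf2 had r = 0.06 with the blood cell score and 0.09 with the endothelial score. Within groups these were -0.03 and 0.50. The blood cell score ran from -0.32 to 0.06 in 30C, where Klf2 was highest. With the endothelial score as a covariate, Klf2 in 1W against Sal was at 0.06. That score was higher on every 1W array than on any Sal array, so this fit cannot tell score and group apart. The part of the other cell types was not tested. Klf6 was lower in all 3 groups, by -0.11 in 1C, -0.13 in 30W and -0.19 in 1W (SE 0.13 each), with overlap in each, where 3.21%, 7.19% and 3.25% of all genes lay apart in that direction. Without Sal replicate 3 these became 0.01, -0.02 and -0.08. Klf4 and Klf10 lay between -0.06 and 0.12 in these 3 comparisons. For Klf10 the sign turned on 1 array: without Sal replicate 1 it was at -0.12 in 1C, -0.24 in 1W and -0.25 in 30W, and without Sal replicate 3 at 0.29, 0.18 and 0.16.

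**Figure D2:**
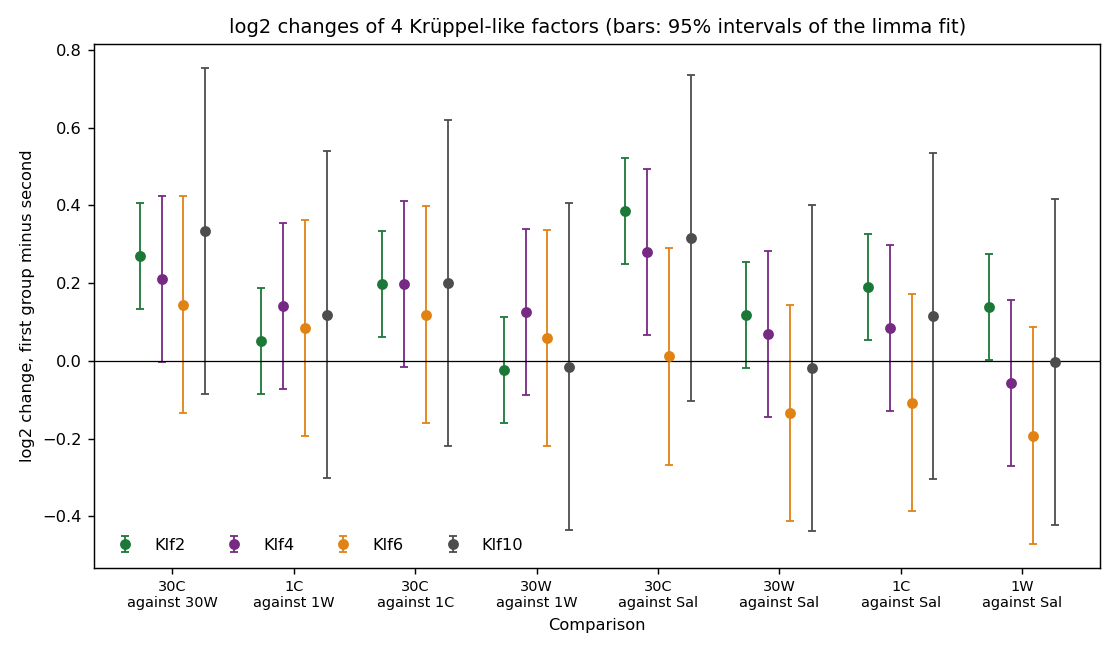
log2 change of each gene (y axis, first group minus second) in 8 comparisons of 2 groups (x axis), with bars for the 95% intervals of the limma fit over all 15 arrays. The Klf2 interval lies above 0 in 30C against 30W, 1C and Sal and in 1C and 1W against Sal, the Klf4 interval in 30C against Sal alone, and those of Klf6 and Klf10 include 0 in all 8.

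Klf4 had a second probe set, to which the platform annotation gives the same transcripts. Its mean over the 15 arrays was 6.63, against 6.92 for the probe set used. It read 6.74, 6.81 and 6.66 in 30C, 6.65, 6.20 and 6.70 in 30W and 6.55, 6.38 and 6.49 in Sal. On the 1C arrays it read 6.64, 6.95 and 6.74, and on the 1W arrays 6.68, 6.66 and 6.66. Both probe sets were higher in 30C than in Sal, by 0.27 on the second (SE 0.11) and 0.28 on the first, and higher in 30C than in 30W, by 0.22 (SE 0.11) and 0.21. On the second the 30C arrays overlapped the 30W arrays, and the difference from 30W was 0.06 (SE 0.08) without 30W replicate 2, an alternative chosen after seeing the data. In 1C against 1W they gave 0.11 and 0.14. They differed more where a day 1 group was set against another time or Sal. On the second probe set 30C against 1C was -0.03, 30W against 1W was -0.15, 1C against Sal was 0.30 and 1W against Sal was 0.19, where the first gave 0.20, 0.13, 0.08 and -0.06. Over the 15 arrays the probe sets correlated with Pearson r = 0.49 and Spearman rho = 0.74.

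**Figure D3:**
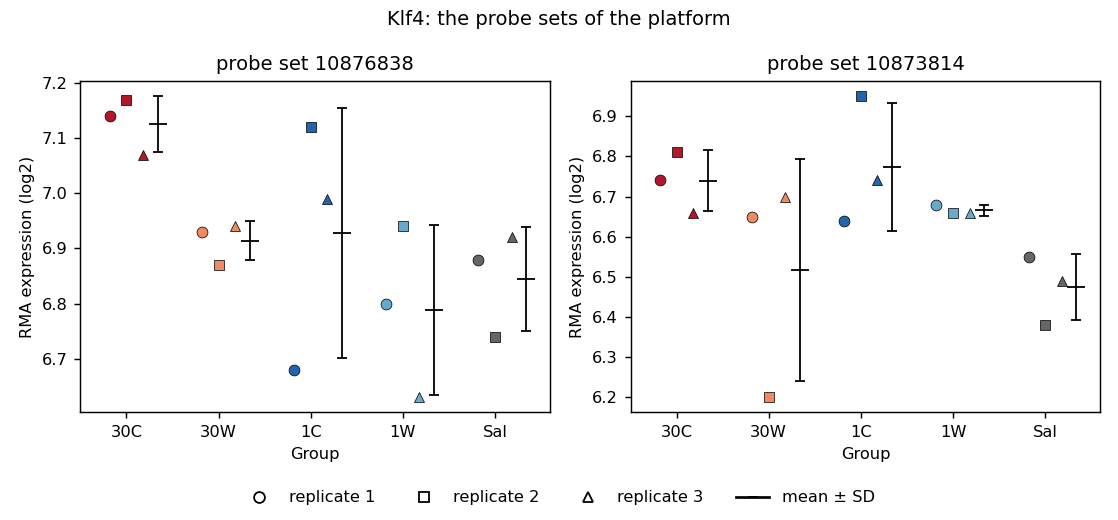
RMA log2 expression (y axis) of Klf4 on the probe set used (left) and on the second probe set (right) by group (x axis), with 1 marker per array and bars for mean ± SD of 3 arrays. On both, the 30C arrays lie above the Sal arrays, and the 1W arrays lie above Sal on the second probe set alone.

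The 4 genes did not form 1 pattern across arrays. The 6 correlations between pairs of members are given as a description over 15 arrays, since the genes were chosen together. Klf6 and Klf10 had Pearson r = 0.70 and Spearman rho = 0.57, with r = 0.74 for deviations from the group means. Without the 2 arrays farthest from the Klf6 median r was 0.24. Dropping the extremes of Klf6 narrows its range and lowers r by itself, so this value cannot tell whether the relation rested on those arrays. Klf2 and Klf4 had r = 0.54 and rho = 0.65, but r = -0.06 within groups, so they were alike between groups and not within them. Klf4 had r = 0.46 with Klf6 and 0.48 with Klf10, and Klf2 had r = 0.08 with Klf6 and 0.32 with Klf10.

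Cortical neuron markers moved with Klf6 and Klf10 within groups. For deviations from the group means, the correlation with the cortical score was r = 0.89 for Klf10, 0.80 for Klf6, 0.35 for Klf4 and -0.28 for Klf2. Over all 15 arrays without removing group means it was 0.81 (rho = 0.69) for Klf10 and 0.73 (rho = 0.73) for Klf6. Without the 2 arrays farthest from the median score these were 0.49 and 0.74, and for Klf2 r was -0.69, against -0.04 over all 15. Medium spiny neuron markers ran the other way for Klf6 (r = -0.75, rho = -0.50). Their score was -0.45, 0.09 and 0.13 in 30C, against 0.05, -0.03 and 0.08 in 30W. The part of either cell type in the Klf6 and Klf10 values was not tested beyond the covariate fit above.

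Endothelial markers were not higher in 30C beside Klf2 and Klf4. Of 13 endothelial markers kept, 1 was lower and 0 higher at an unadjusted p of 0.05 in limma in 30C against 30W, with a median log2 change of -0.07. The score ran from -0.14 to 0.03 on the 30C arrays, -0.06 to 0.09 on the 30W arrays, 0.03 to 0.07 on the 1C arrays, 0.03 to 0.12 on the 1W arrays and -0.15 to 0.00 on the Sal arrays. In 30C against 30W the change of Klf2 was 0.30 (SE 0.06) with this score as a covariate, and that of Klf4 was 0.18 (SE 0.10). On the 1C and 1W arrays the endothelial score was above all Sal arrays, as Klf2 was. Microglia and macrophage markers had 0 of 13 at that level in 30C against 30W, with a score between -0.08 and -0.04 on the 30C arrays and between -0.09 and -0.03 on the 30W arrays. Oligodendrocyte markers, 0 of 11 at that level in this comparison, had a score of -0.14 to -0.07 on the 30C arrays and -0.04 to 0.01 on the 30W arrays, and in 30C against Sal 3 of the 11 were lower, where 2.12% of all genes were. For the test averaged over withdrawal length 8 of the 11 were lower, where 2.34% of all genes were, and in 1C against 1W 10 of the 11, where 2.17% were. Over the 15 arrays the oligodendrocyte score ran against Klf2 (r = -0.38, rho = -0.69) and Klf4 (r = -0.36, rho = -0.69), with r = 0.11 and 0.32 within groups, and its part in their values was not tested.

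Immediate early genes, whose transcription in neurons starts soon after firing, ran with Klf10. Of 16 with a named probe set (Fos, Junb, Egr1, Arc, Nr4a1 and Nfil3 among them), 13 were higher in 30C than in 30W at an unadjusted p of 0.05 in limma, where 2.11% of all genes were, and 0 passed adjusted. Their score was 0.67, 0.35 and 0.29 in 30C, against 0.02, -0.34 and -0.04 in 30W. Klf10 correlated with it over the 15 arrays at r = 0.86 (rho = 0.82), at 0.80 without the 2 farthest arrays and at 0.94 within groups. For Klf4 these were 0.76 (rho = 0.80), 0.65 and 0.48, for Klf6 0.65 (rho = 0.51), 0.48 and 0.71, and for Klf2 0.51 (rho = 0.47), 0.25 and -0.30. The score and Klf10 were read from the same arrays, and the part of cortical RNA in their relation was not tested.

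**Figure D4:**
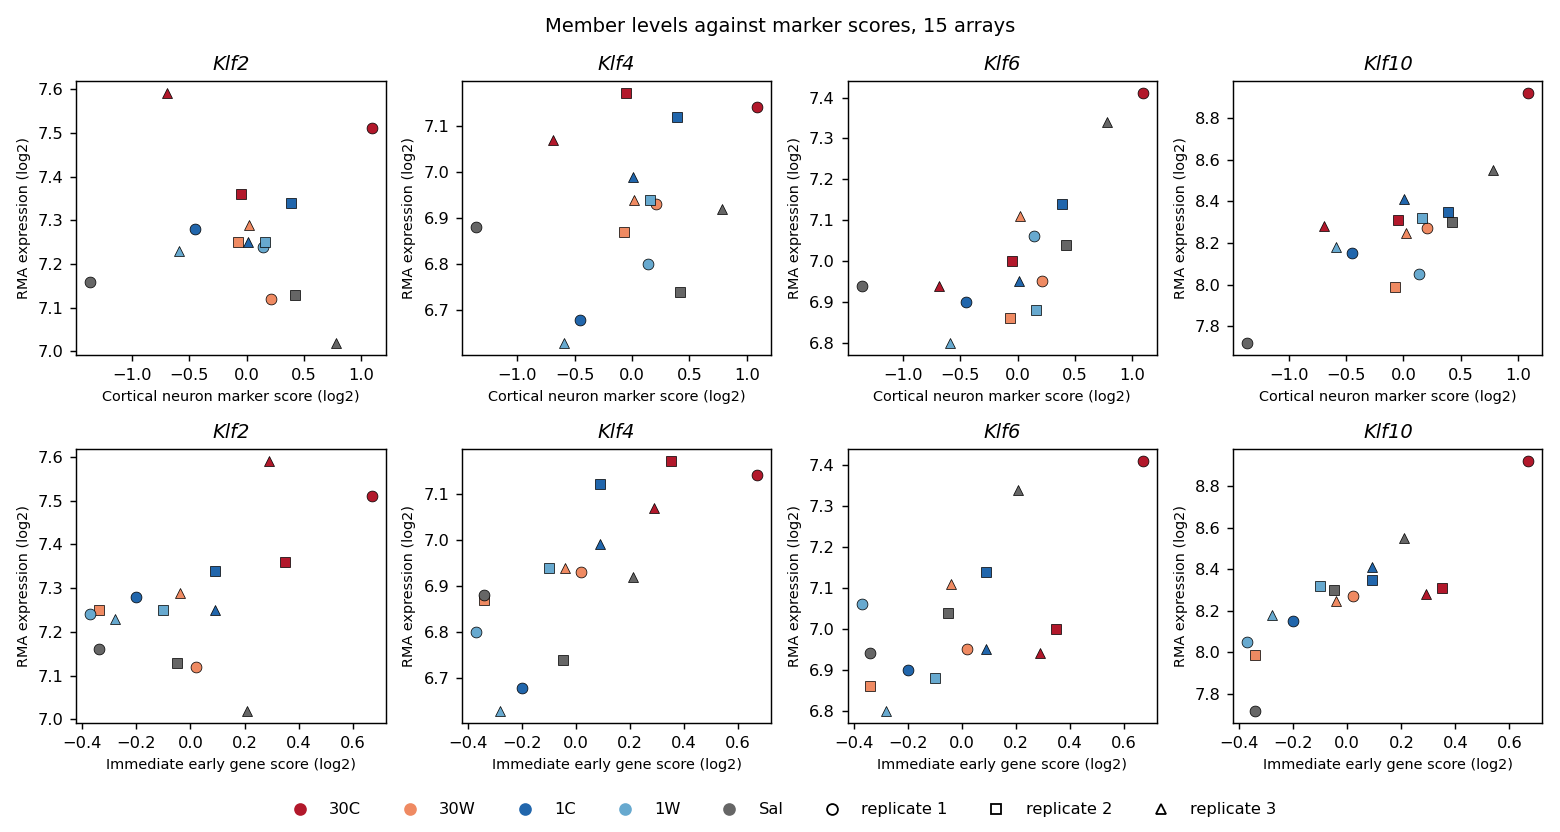
RMA log2 expression of each gene (y axis) on 15 arrays against the cortical neuron marker score (top) and the immediate early gene score (bottom), both in log2 (x axis), coloured by group with a marker shape per replicate. Klf10 climbs with both scores, and Klf6 with the cortical score, while the 3 Klf2 values of 30C lie above the others from a cortical score of -0.69 to 1.09.

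Glucocorticoid-responsive genes correlated with all 4 genes. Of 12 kept, 3 were higher in 30C than in 30W at an unadjusted p of 0.05 in limma (2.11% of all genes) and 5 in 30C than in Sal (2.94%), and 0 passed adjusted. The 3 of smallest p in 30C against Sal were Cdkn1a at 0.72 (SE 0.16), which encodes the cell cycle inhibitor p21, the kinase gene Sgk1 at 0.46 (SE 0.14) and Ddit4, an inhibitor of mTOR signalling, at 0.21 (SE 0.06). Averaged over this list, the score was 0.18, 0.13 and 0.13 in 30C, against -0.15, -0.08 and -0.02 in Sal. Its correlation with Klf2 was r = 0.69 (rho = 0.73), 0.66 without the 2 farthest arrays and 0.36 within groups. With Klf4 it was r = 0.77 (rho = 0.73), 0.68 and 0.56, with Klf6 0.53 (rho = 0.54), 0.28 and 0.59, and with Klf10 0.51 (rho = 0.50), 0.33 and 0.31. The list also holds Klf9 and Klf15 and the immediate early gene Per1, and its Cdkn1a is also on the list of reported targets below.

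The rest of the family had 10 log2 changes above 0 and 6 below 0 in 30C against 30W. Of the 22 other KLF and SP genes listed, 16 had a named probe set and all 16 were kept. In that comparison 1 was higher, 2 were lower and 13 were neither at an unadjusted p of 0.05 in limma, where 2.11% of all genes were higher and 1.82% lower, with a median log2 change of 0.03, and 0 passed adjusted. The repressor gene Klf12 was higher by 0.18 (SE 0.07), and Sp6 and Sp1, genes of the related SP factors, were at -0.15 (SE 0.06) and -0.20 (SE 0.09). Klf5, with the largest change among the 16, was at 0.23 (SE 0.11) in this comparison and at 0.19 (SE 0.08, unadjusted p = 0.0289) for the test averaged over withdrawal length. Klf9 and Klf15, which respond to glucocorticoids, were at -0.02 (SE 0.09) and -0.10 (SE 0.06), and Klf7, which promotes axon growth as Klf6 does, at 0.06 (SE 0.07).

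Between other groups few of the 16 family genes reached that level. In 30C against Sal 0 of the 16 reached an unadjusted p of 0.05 in limma, and the 2 of largest change were Klf14 at 0.13 (SE 0.07) and Klf16 at -0.12 (SE 0.08). Of 16, 0 reached it in 1C against 1W, 30C against 1C, 1C against Sal and 1W against Sal. Over all genes 2.94% were higher at that level in 30C against Sal, and 1.86%, 2.41%, 2.1% and 2.78% in the comparisons just named, in that order. Counts of 0 among 16 genes thus stand near the background. Sp6 was higher in 30W than in 1W by 0.23 (SE 0.06, adjusted p = 0.373) and than in Sal by 0.20 (SE 0.06, adjusted p = 0.447), where 4.19% and 4.25% of all genes were higher at the unadjusted level. Its mean was highest in 30W, at 7.05, and stood at 6.89 in 30C, 6.90 in 1C, 6.82 in 1W and 6.84 in Sal. Klf12 was lower in 30W than in Sal, at -0.15 (SE 0.07), at a level where 3.35% of all genes were lower. In the interaction of test and withdrawal length Klf12 was at 0.24 (SE 0.10, 1.6% of all genes higher) and Sp6 at -0.23 (SE 0.08, 1.43% of all genes lower), with adjusted p = 0.999 for both.

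**Figure D5:**
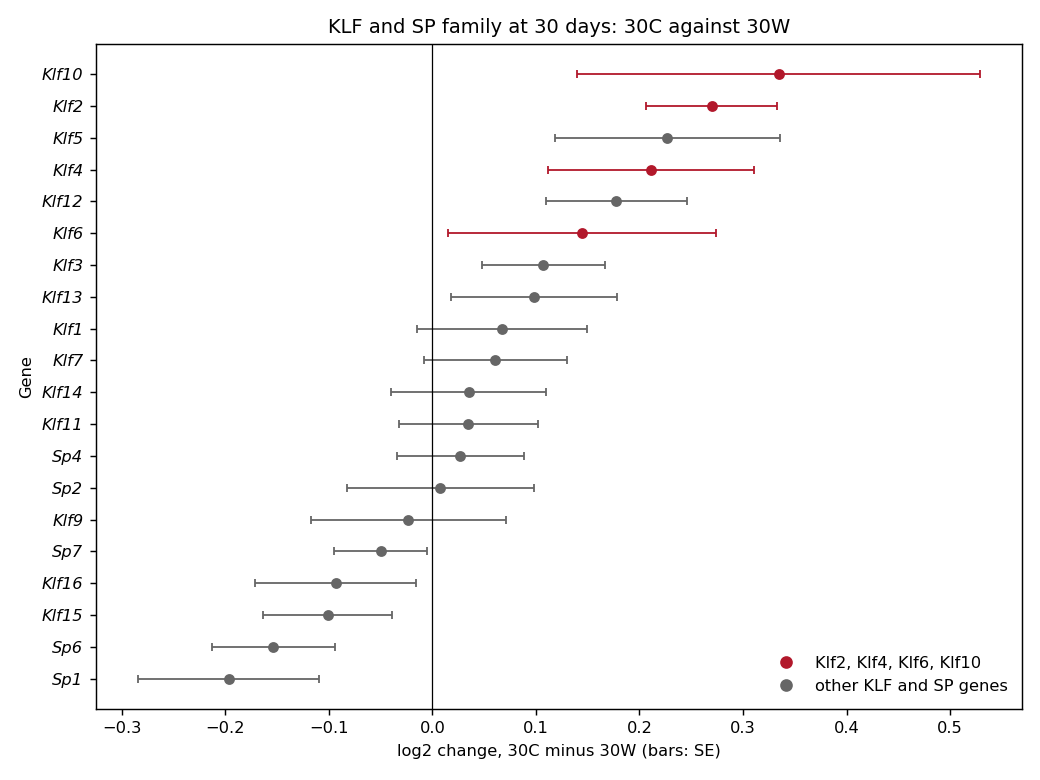
log2 change in 30C against 30W (x axis, bars for SE) of 20 KLF and SP family genes (y axis), with Klf2, Klf4, Klf6 and Klf10 in red and the other 16 in grey. The 4 genes lie among the 6 highest, together with Klf5 and Klf12, and Sp1 is lowest.

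Genes of the routes known to induce these factors did not reach the unadjusted level in 30C against 30W or against Sal. Of 5 kept genes of the ERK5 and MEF2 route, which raises Klf2 and Klf4 in endothelium, 0 reached an unadjusted p of 0.05 in limma in 30C against 30W or against Sal. The kinase gene Mapk7, encoding ERK5, was at 0.05 (SE 0.05) and Mef2b at -0.13 (SE 0.10) in 30C against 30W. Of 8 kept TGF-beta pathway genes, the route that induces Klf10, 0 reached that level in either comparison. Over all genes 2.11% were higher and 1.82% lower at that level in 30C against 30W, and 2.94% and 2.12% in 30C against Sal, so counts of 0 in lists this short stand near the background. The ligand gene Tgfb1 was at 0.07 (SE 0.05) and Tgfb2 at 0.22 (SE 0.19) in 30C against 30W. The inhibitor gene Smad7, which KLF10 represses, was at 0.08 (SE 0.09).

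Among 9 kept genes reported as targets of these factors, Cdkn1a was the 1 that reached an unadjusted p of 0.05 in 30C against 30W, where 2.11% of all genes were higher. It was at 0.53 (SE 0.16, unadjusted p = 0.00496, adjusted p = 0.999 in limma). Cdkn1a is also on the glucocorticoid-responsive list and was counted there, so the 2 counts are not separate. The list's median log2 change was 0.03 there. Cdkn1a, which KLF4 and KLF6 activate in human cells, averaged 8.47 in 30C, 7.95 in 30W, 8.08 in 1C and 7.75 in Sal. Nos3, the endothelial nitric oxide synthase that KLF2 induces in human endothelial cells, was at -0.06 (SE 0.07) in 30C against 30W and 0.08 (SE 0.07) in 30C against Sal. Thbd, another endothelial target, lay below the filter.

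The genes whose levels ran most like each member were picked by Pearson r over the 15 arrays among 11777 others, and r for such picks is high by choice. For Klf2 they were Ccnd3, a D-type cyclin (r = 0.87), Gspt2, Cdkn1a, Cited2 and Usp40 (r = 0.79), and within groups Ccnd3 kept r = 0.67 and Cited2 0.02. For Klf4 they were Nkx2-8 (r = 0.83), Hsd11b2, an enzyme that inactivates glucocorticoids, Cdc6, the AP-1 gene Junb and Cdkn1a (r = 0.82). For Klf6 they were the corepressor gene Tle3 (r = 0.92), Atp6v0a1, the adrenergic receptor gene Adra2a, Plcd3 and the cannabinoid receptor gene Cnr1 (r = 0.91). For Klf10 they were R3hdm1 (r = 0.91), the AMP-activated kinase gene Prkaa2, Ap2b1, the pseudokinase gene Trib1 and Btbd10 (r = 0.90). No member was among the 5 of another, and the nearest were Klf4, 269th for Klf2, and Klf6, 290th for Klf10.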

How the data were processed

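RNA of 15 nucleus accumbens samples was measured on Affymetrix rat arrays. The authors deposited RMA log2 values, as the submitters' processing notes name them. RMA corrects background, quantile-normalizes and summarises probe sets. Software and filters are not given in the sources used. Of 28826 probe sets, 15209 had 1 symbol, 306 several and 13311 were unnamed here. Of those with 1 symbol, 15178 were matched by Entrez ID to RefSeq (GRCr8), used for names only. Each of 14497 genes was represented by its probe set of highest mean, and 11778 were kept that exceeded the 30th percentile on 3 arrays or more. One model with the 5 groups was fitted over 15 arrays with limma 3.58.1 in R 4.3.3 (10 residual and 3.44 prior degrees of freedom), for 10 comparisons, two-sided, with Benjamini-Hochberg adjustment at 0.05. It was tested on simulated data with planted changes larger than any change of the members, which tells nothing of its power for changes as small as theirs. An exact test of 3 arrays against 3 cannot go below p = 0.1, so none was run, and the number of arrays limits the precision. The members and the 15 gene lists were chosen with earlier results of these data known. Genes named are the members, list members by smallest p or largest change, and the 5 most alike per member. Klf7, Klf9 and Klf15 in 30C against 30W, Thbd and the list members named without values fall outside that rule and were picked with their values known. Alternatives changed the filter, the probe set, the normalization, eBayes settings, array weights, the arrays fitted, the replicate block, 2 marker scores as covariates, threshold and leaving out each array. Replicate numbers showed no pairing in the values. Same-numbered arrays of different groups had deviations from the group means correlating between -0.63 and 0.51 (median -0.01). Differently numbered arrays ran from -0.51 to 0.60 (median -0.01). Likeness of these ranges cannot establish that the arrays were unpaired.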

Additional observations from a re-analysis of the deposited data

How the results depend on the processing

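Of the 4 genes 0 passed over all genes in each of the 10 comparisons under every alternative run, with 0 also without each array in turn, with the replicate block and at an adjusted p under 0.10, and the smallest adjusted p of any was 0.0818 (Klf2, 30C against Sal, without 30C replicate 2). Of 1050 alternative values for the 40 member changes, 44 had the opposite sign, 9 of them where the change was at least 0.1, and 6 moved by more than the within-group SD. Many of the 1050 could not differ from the main change, such as those that left out an array of a group not compared. The counts therefore make sign changes look rarer than they were among alternatives able to move a value. Over all genes the count was 0 in each comparison. With array weights it was 1 in 30C against 30W, 2 in 30C against 1C and 3 in 30W against 1W. With the cortical score it was 1 in 30C against 30W, 1 in 30C against 1C and 2 for the averaged test. At an adjusted p under 0.10 it was 1 in 30C against 30W. Without 1 array the counts ran from 0 to 1 in 30C against 30W, 1C against 1W, 30W against 1W and 1C against Sal, from 0 to 2 in 30C against 1C, and were 0 in the other 5. The cause was not tested. With the replicate block 0 genes passed in any comparison. The log2 change of Klf2, 30C against 30W, was 0.27 as without it (SE 0.07, adjusted p = 0.939 in limma). Of the 15 arrays 6 correlated best with an array of their own number, and no count for unpaired arrays was worked out. Among pairs of arrays from different groups, 30 shared a number and 60 did not, so some such matches arise without pairing. Depth has no counterpart here: 3 arrays per group limit the precision.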
